A study of Homo sapiens with 3 samples.

Results

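FOXA2-positive cells without SOX17 were examined in colonies grown on micropatterns and treated with CHIR99021, a GSK3 inhibitor that activates WNT signalling. The colonies were of HES3, an established line of human embryonic stem cells. Cells were chosen by their own RNA counts: at least 2 FOXA2 UMIs (unique molecular identifiers, each standing for 1 captured RNA molecule), no SOX17 UMI, and a summed level of the stress genes DDIT4, CHAC1 and SESN2 under 700 CPM (UMI counts scaled to the same fixed total in every cell or group) in the cell. In the CHIR library 1826 of 7084 kept cells met the rule, of 23361 kept cells in the 3 libraries of the series. They were set against the 3143 CHIR cells with no FOXA2 UMI under the same stress limit, called FOXA2-zero cells here. The SOX17 limit was not applied to FOXA2-zero cells, and 1 of the 3143 carried a SOX17 UMI. A count of 0 UMIs does not show that a cell lacks the RNA.

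The line carries a GFP reporter at MIXL1, and colonies were plated with 10 µM of the ROCK inhibitor Y-27632 in mTeSR Plus for every library, then treated from 24 h for a further 48 h. The CHIR library received 6 µM CHIR99021, the CHIR+Activin library 3 µM CHIR99021 with 100 ng/mL Activin A, a ligand of the NODAL receptors, and the BMP4 library 50 ng/mL BMP4. Each treatment was 1 library from about 10 pooled micropatterns of this single line, with no untreated library. Cells of a library are not replicates, so no test was made, and every interval given is a 95% interval of counting error only.

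FOXA2 is a forkhead transcription factor that opens chromatin at endoderm genes, and it marks the anterior end of the primitive streak, the region through which epiblast cells leave the embryo's surface layer. From there, cells go on to definitive endoderm, which switches on SOX17, or to the midline axial mesoderm of node and notochord, which keeps TBXT. WNT signals induce the streak, and NODAL signals, acting through SMAD2 and FOXH1 with EOMES, favour its anterior fates. CER1, DKK1 and LEFTY proteins are secreted from anterior cells and restrain NODAL, BMP and WNT signals.

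The 3 libraries held between 130592423 and 185215378 UMIs in kept cells, with a median of 22919.5 UMIs per cell in CHIR, 17202 in CHIR+Activin and 12623 in BMP4. Pairs of libraries shared between 8 and 12 cell barcodes. FOXA2-positive CHIR cells were deeper than FOXA2-zero cells, with medians of 27598.5 and 21478 UMIs and of 6909.5 and 6108 genes per cell. Mitochondrially encoded genes made up a median of 4.41% of UMIs in FOXA2-positive cells and 5.08% in FOXA2-zero cells. Summed levels of the G2/M genes were 4741 CPM in FOXA2-positive and 4426 CPM in FOXA2-zero cells. Shares of cells with a UMI are given after thinning each cell to 10000 UMIs, except where a share is called unthinned.

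FOXA2-positive cells made up 25.8% of kept CHIR cells (24.8 to 26.8). They carried a median of 3 and at most 19 FOXA2 UMIs, and FOXA2 stood at 126 CPM over their summed counts. Of them, 654 had exactly 2 UMIs, 389 had 3, 405 had 4 or 5, and 378 had 6 or more. Just outside the rule, 1215 CHIR cells carried 1 FOXA2 UMI and 346 met the FOXA2 and SOX17 limits but stood at or above the stress limit. Around that limit, 141 such cells had a stress sum between 600 and 700 CPM and 86 between 700 and 800. The same rule chose 1151 cells in CHIR+Activin (16.7%, 15.9 to 17.6) and 46 cells in BMP4 (0.489%, 0.358 to 0.652). After thinning every cell to 10000 UMIs before the rule, the share was 10.2% (9.50 to 10.9) in CHIR, 8.18% (7.52 to 8.87) in CHIR+Activin and 0.284% (0.174 to 0.438) in BMP4. CHIR thus held the highest share of the 3 libraries at either depth, and the gap to CHIR+Activin was smaller at 1 depth.

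SOX17, the transcription factor that marks definitive endoderm, was nearly absent from the CHIR library, so the SOX17 limit removed few cells. Unthinned, of 1829 CHIR cells with at least 2 FOXA2 UMIs under the stress limit, 3 carried a SOX17 UMI (0.164%, 0.0338 to 0.479). Over all 7084 kept CHIR cells, 7 did. In CHIR+Activin 47 of 1198 such FOXA2 cells carried SOX17 (3.92%, 2.90 to 5.18), and in BMP4 27 of 73 did (37.0%, 26.0 to 49.1). SOX17 was read beside FOXA2 most often in BMP4 and least often in CHIR, although CHIR cells were the deepest. SOX17 had the same order over all kept cells, at 16.7% in BMP4 (1571 of 9401), 2.44% in CHIR+Activin (168 of 6876) and 0.0988% in CHIR. SOX17 is also in the primordial germ cell list used here, so these shares do not by themselves count definitive endoderm cells.

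The 4 genes given as markers of the population did not separate the groups equally. EOMES, a T-box factor needed for endoderm and early mesoderm, averaged 115 CPM in FOXA2-positive cells and 57.4 CPM in FOXA2-zero cells, a log2 ratio of 1.004 (0.95 to 1.06). FGF4, a secreted growth factor, stood at 71.2 CPM in FOXA2-positive and 24.5 CPM in FOXA2-zero cells, a log2 ratio of 1.54 (1.46 to 1.62). HHEX, a homeobox factor of anterior endoderm, was low in both groups, at 9.01 CPM in FOXA2-positive and 5.79 CPM in FOXA2-zero cells. Its log2 ratio was 0.64 (0.45 to 0.83), and its UMIs in FOXA2-positive cells numbered 523 in 395 cells.

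Among 9896 genes of at least 10 CPM in either group, 138 (1.39%) were at least 1.5-fold higher and 69 (0.697%) at least 1.5-fold lower in FOXA2-positive than in FOXA2-zero CHIR cells. These counts leave out FOXA2, SOX17, DDIT4, CHAC1 and SESN2, which chose the cells. Of the higher genes 54, and of the lower genes 23, reached 10 CPM only in the group where they were high, so their calls followed in part from the filter. At 2-fold the counts were 40 higher and 10 lower, and the median log2 ratio of all compared genes was -0.002. Most of the transcriptome was therefore within 1.5-fold of the FOXA2-zero cells, and the widest higher ratios were those of GATA6, FGF17 and DKK1. The plot of gene levels shows both sets side by side.

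**Figure D1:**
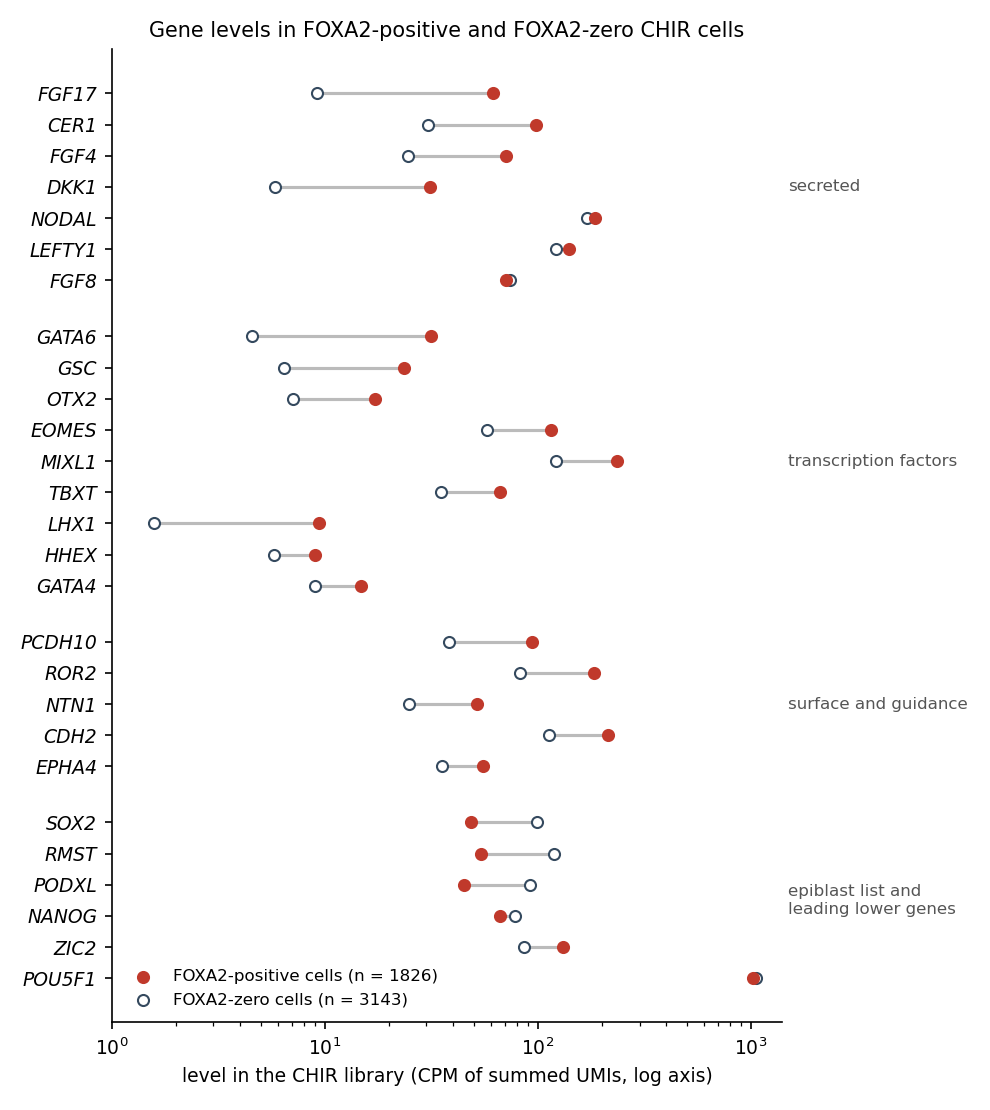
Levels in CHIR cells in CPM of summed UMIs on a log axis, with filled points for FOXA2-positive cells (n = 1826 cells) and open points for FOXA2-zero cells (n = 3143 cells), both of 1 library. GATA6, FGF17 and LHX1 have the widest gaps, NODAL, FGF8 and POU5F1 lie nearly together, and SOX2, RMST and PODXL are lower in FOXA2-positive cells.

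Among transcription factors of the anterior streak, GATA6 showed the widest gap, at 31.4 CPM in FOXA2-positive and 4.54 CPM in FOXA2-zero cells (log2 ratio 2.79, 2.62 to 2.96). GATA6 is a zinc finger factor needed for endoderm formation. GSC, a homeobox repressor of the organizer region, stood at 23.6 CPM in FOXA2-positive and 6.43 CPM in FOXA2-zero cells (1.88, 1.73 to 2.03). OTX2, a homeobox factor of anterior epiblast and endoderm, had 17.3 CPM in FOXA2-positive and 7.08 CPM in FOXA2-zero cells (1.29, 1.13 to 1.44). MIXL1, the streak gene that carries the reporter in this line, had 235 CPM in FOXA2-positive and 122 CPM in FOXA2-zero cells (0.95, 0.91 to 0.99). LHX1, an organizer factor, stayed below the 10 CPM needed for the comparison, at 9.36 CPM in FOXA2-positive and 1.58 CPM in FOXA2-zero cells (2.57, 2.28 to 2.86). Its UMIs were unevenly spread: 196 of 1826 FOXA2-positive cells held any, and 28 cells with 5 or more UMIs held 56.0% of them.

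Genes of secreted proteins had both wide and narrow gaps. FGF17 had 61.4 CPM in FOXA2-positive and 9.23 CPM in FOXA2-zero cells (log2 ratio 2.73, 2.62 to 2.85), and the highest count in a FOXA2-positive cell was 59 UMIs. CER1, an antagonist of NODAL, BMP and WNT ligands, had 97.7 CPM in FOXA2-positive and 30.5 CPM in FOXA2-zero cells (1.68, 1.61 to 1.75). DKK1, which blocks the WNT co-receptor LRP6, had 31.2 CPM in FOXA2-positive and 5.87 CPM in FOXA2-zero cells (2.41, 2.26 to 2.57). Netrin NTN1, a guidance cue, stood at 51.6 CPM in FOXA2-positive and 24.9 CPM in FOXA2-zero cells (1.05, 0.97 to 1.13). FGF8, another FGF of the streak, did not share the pattern of FGF17 and FGF4, with 70.9 CPM in FOXA2-positive and 74.1 CPM in FOXA2-zero cells (-0.06, -0.12 to -0.01).

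The anterior streak list held 17 genes, of which 8 were at least 1.5-fold higher, 5 were within 1.5-fold and 4 lay under 10 CPM in both groups (LHX1, HHEX, CHRD and FZD8). Its 13 compared members had a median log2 ratio of 1.004, beside a median of -0.002 and 1.39% higher for all compared genes. EOMES, whose own ratio is that median, and FGF4 were given as markers of this population, so they carry no separate weight here. GATA6, FGF17, GSC and OTX2 reached the comparison through their level in FOXA2-positive cells alone, so their part of that count and median followed from the filter. The 5 members within 1.5-fold were NODAL, its inhibitors LEFTY1 and LEFTY2, its SMAD partner FOXH1, and FGF8.

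The core of NODAL signalling was nearly level between the groups. NODAL itself had 186 CPM in FOXA2-positive and 171 CPM in FOXA2-zero cells (log2 ratio 0.12, 0.09 to 0.16). LEFTY1 had 141 CPM in FOXA2-positive and 121 CPM in FOXA2-zero cells, and LEFTY2 had 74.9 and 79.2 CPM in those groups. The receptors ACVR1B, ACVR2A and ACVR2B had log2 ratios of 0.19, 0.07 and 0.18, and the signal carriers SMAD2, SMAD3 and SMAD4 of -0.07, -0.03 and 0.07. Of 18 compared genes of the NODAL and Activin list, 2 were at least 1.5-fold higher, CER1 among them, and 0 were lower. Over all compared genes 1.39% were higher and 0.697% lower. The feedback genes SMAD7 and SKIL were within 1.5-fold, with log2 ratios of -0.38 and -0.34.

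Most FGF and WNT pathway genes were within 1.5-fold. Of 20 compared FGF genes, 5 were at least 1.5-fold higher, among them FGF17, FGF4 and DUSP6, and 1, the receptor FGFR2, was lower, beside 1.39% higher and 0.697% lower over all compared genes. FGF17 reached 10 CPM only in FOXA2-positive cells. DUSP6, a phosphatase that ERK signalling induces and that dampens ERK, had 32.7 CPM in FOXA2-positive and 15.5 CPM in FOXA2-zero cells (log2 ratio 1.07, 0.97 to 1.18). FGFR2 had 24.7 CPM in FOXA2-positive and 39.9 CPM in FOXA2-zero cells (-0.69, -0.78 to -0.60). Among 14 compared WNT targets and feedback genes, DKK1 and APCDD1, both secreted or membrane-bound WNT inhibitors, were higher, and RNF43, a ubiquitin ligase that removes WNT receptors, was lower. All 3 reached 10 CPM in 1 group alone. APCDD1 had 17.7 CPM in FOXA2-positive and 8.66 CPM in FOXA2-zero cells, and RNF43 had 9.39 and 14.8 CPM in those groups. The median log2 ratio of those 14 genes was -0.04. WNT3, a streak ligand, lay just within 1.5-fold (0.58, 0.52 to 0.64), while the WNT5A receptor ROR2 had 183 CPM in FOXA2-positive and 82.2 CPM in FOXA2-zero cells (1.15, 1.11 to 1.20).

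Of the BMP targets, 6 were compared and 1, ID1, was at least 1.5-fold lower. For this and the NOTCH and retinoid counts, the shares over all compared genes were 1.39% higher and 0.697% lower. ID1, an inhibitor of helix-loop-helix factors, had 101.3 CPM in FOXA2-positive and 167 CPM in FOXA2-zero cells (log2 ratio -0.72, -0.77 to -0.68), whereas ID3 had 239 CPM in FOXA2-positive and 208 CPM in FOXA2-zero cells (0.20, 0.17 to 0.23). In the NOTCH list 1 of 8 compared genes was higher, the repressor HES1, with 53.5 CPM in FOXA2-positive and 26.8 CPM in FOXA2-zero cells (0.996, 0.915 to 1.08). JAG1 and NOTCH3 were within 1.5-fold. CYP26A1, the enzyme that degrades retinoic acid, was the 1 of 4 compared retinoid genes that was higher, and it reached 10 CPM only in FOXA2-positive cells, with 22.0 CPM in FOXA2-positive and 5.92 CPM in FOXA2-zero cells (1.90, 1.74 to 2.05).

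Posterior streak and caudal genes were represented by few members. TBXT, the T-box factor of streak and notochord, had 66.2 CPM in FOXA2-positive and 35.1 CPM in FOXA2-zero cells (log2 ratio 0.92, 0.85 to 0.99). FGF17, CYP26A1 and TBXT were the 3 higher genes of 6 compared in that list, beside 1.39% over all compared genes. FGF17 and CYP26A1 reached 10 CPM only in FOXA2-positive cells. FGF17 is also in the anterior streak list and TBXT in the node list. The other 3 were within 1.5-fold, with a lowest log2 ratio of -0.53. NKX1-2, of the same list, had 42.0 CPM in CHIR cells with 0 FOXA2 UMIs and 20.2 CPM with at least 6. CDX1, CDX2, CDX4 and EVX1 were among the genes under 10 CPM. The 26 HOX genes summed to 0.741 CPM in FOXA2-positive and 0.929 CPM in FOXA2-zero cells.

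Epiblast genes were mostly near level, with SOX2 and ZIC2 as the exceptions. Of 17 compared genes of the pluripotent epiblast list, 15 were within 1.5-fold, and the list had a median log2 ratio of -0.13. Its 1 higher and 1 lower gene stood beside 1.39% higher and 0.697% lower over all compared genes. POU5F1, the core pluripotency factor, had 1019.9 CPM in FOXA2-positive and 1054 CPM in FOXA2-zero cells, and NANOG had 66.2 and 78.4 CPM in those groups. SOX2, which keeps pluripotent cells and later neural cells, had 48.4 CPM in FOXA2-positive and 99.3 CPM in FOXA2-zero cells (log2 ratio -1.04, -1.10 to -0.98). ZIC2, a zinc finger factor of primed epiblast, went the other way, with 131 CPM in FOXA2-positive and 85.9 CPM in FOXA2-zero cells (0.60, 0.56 to 0.65). PRDM14, a repressor that guards pluripotency, was under 10 CPM, at 3.64 CPM in FOXA2-positive and 7.97 CPM in FOXA2-zero cells.

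The lowest genes of at least 50 CPM were headed by RMST, a long noncoding RNA known as a partner of SOX2 in human neural cells. RMST had 54.3 CPM in FOXA2-positive and 119 CPM in FOXA2-zero cells (log2 ratio -1.13, -1.19 to -1.07). MGAT4C, LINC00698 and the sialomucin PODXL, a cell surface protein of pluripotent cells, followed with log2 ratios of -1.09, -0.98 and -1.03. TAGLN, an actin-binding protein, had 44.2 CPM in FOXA2-positive and 79.4 CPM in FOXA2-zero cells (-0.85, -0.91 to -0.78). B3GALT1, VSNL1, EDIL3, LRRN1, AASS, PCSK5, TLE1 and the unnamed gene ENSG00000289533 had log2 ratios between -0.73 and -0.60. With ID1 (-0.72) and SOX2 (-1.04) they completed the 15 lowest.

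The 15 highest genes of at least 50 CPM included 3 of cell contact, PCDH10, TENM4 and CDH2, picked out here after their values were seen. PCDH10, a protocadherin, had 94.1 CPM in FOXA2-positive and 38.5 CPM in FOXA2-zero cells (log2 ratio 1.29, 1.22 to 1.36). TENM4, a teneurin, had 539.6 CPM in FOXA2-positive and 271.5 CPM in FOXA2-zero cells (0.99, 0.97 to 1.02). CDH2, the N-cadherin that replaces E-cadherin when streak cells leave the epithelium, had 213 CPM in FOXA2-positive and 112 CPM in FOXA2-zero cells (0.92, 0.88 to 0.96). EPB41L3, ELL2 and the unnamed gene ENSG00000231918 had log2 ratios of 0.95, 0.83 and 0.88. Of 14 compared epithelial adhesion genes 0 were higher and 1, the claudin CLDN3, was lower, beside 1.39% and 0.697% of all compared genes. CLDN3 had 6.48 CPM in FOXA2-positive and 10.5 CPM in FOXA2-zero cells. CLDN3 reached 10 CPM only in FOXA2-zero cells, so its call followed in part from the filter. EPCAM was level, with 225 CPM in FOXA2-positive and 219 CPM in FOXA2-zero cells, and SNAI1, a repressor of epithelial genes, had 11.8 and 7.85 CPM in those groups. SNAI1 reached 10 CPM only in FOXA2-positive cells. VIM and FN1, both mesenchymal genes, were within 1.5-fold, with log2 ratios of -0.18 and -0.05.

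Axon guidance genes gave 3 higher and 1 lower of 14 compared, of which PLXNA2 and the lower gene, SEMA3C, reached 10 CPM in 1 group alone. The shares over all compared genes were 1.39% higher and 0.697% lower, here and for the matrix list below. PLXNA2, a semaphorin co-receptor, had 18.2 CPM in FOXA2-positive and 6.09 CPM in FOXA2-zero cells (log2 ratio 1.58, 1.42 to 1.74). NTN1 and the ephrin receptor EPHA4 were the other higher members, and SEMA3C was lower (-0.67, -0.84 to -0.50). In the matrix list, 2 of 17 compared genes were higher, COL5A2 and COL5A1 (0.77 and 0.73), and 1 of them reached 10 CPM only in FOXA2-positive cells. VCAN stood at 365 CPM in FOXA2-positive and 491 CPM in FOXA2-zero cells.

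**Figure D2:**
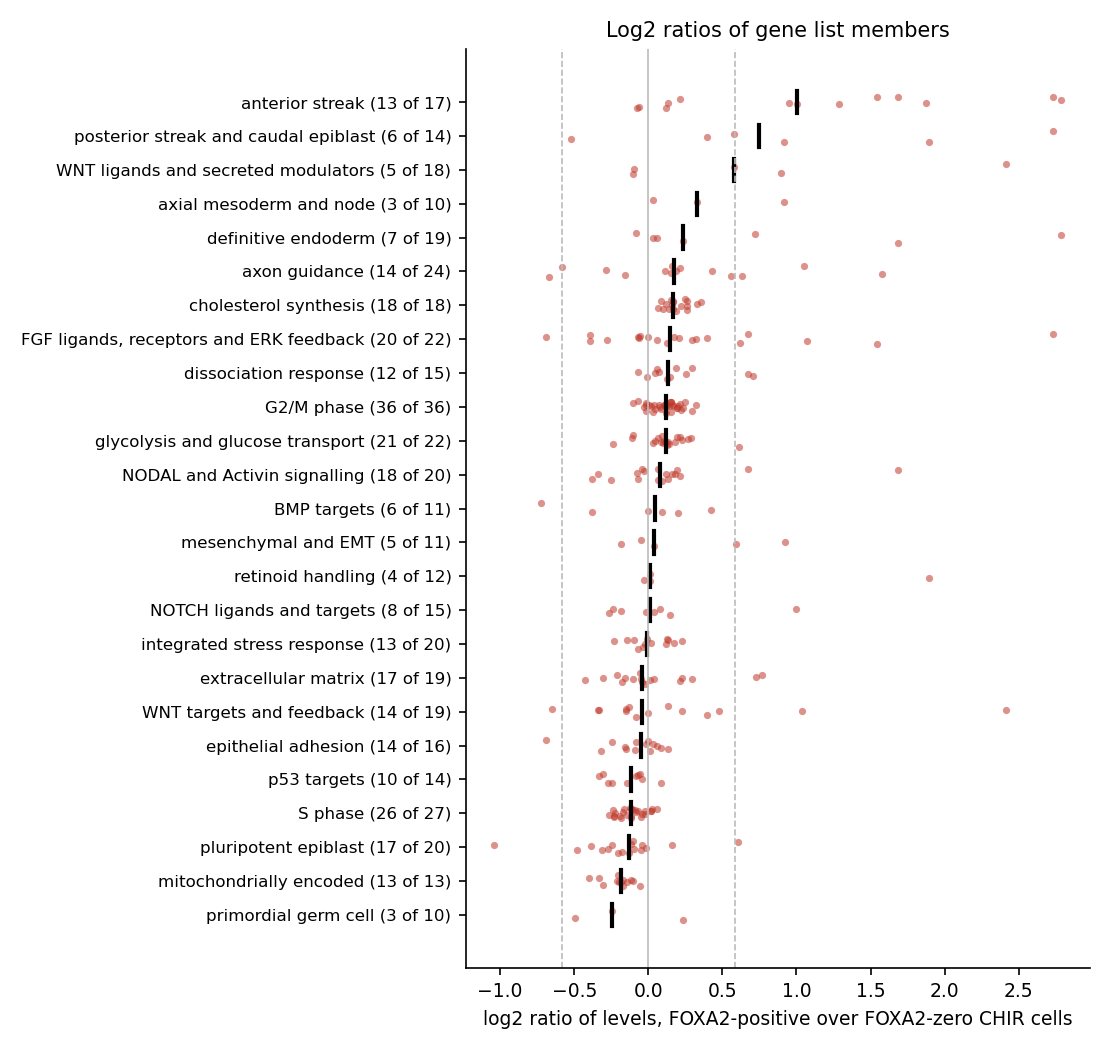
Log2 ratio of levels, FOXA2-positive over FOXA2-zero CHIR cells, for each gene (points) of the lists with at least 3 compared genes, with the list median as a black bar, 1.5-fold as dashed lines, and the number of genes compared of those listed in brackets. The anterior streak list has the highest median at 1.004 and a spread from -0.08 to 2.79, while every gene of the cell cycle and mitochondrial lists lies within 1.5-fold.

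Of the 19 genes of the definitive endoderm list, 12 were not compared, FOXA2 and SOX17 among them. Of the 7 compared, 3 were higher, GATA6, CER1 and GATA4, and both GATA factors reached 10 CPM only in FOXA2-positive cells. The share higher over all compared genes was 1.39%. GATA4, a partner of GATA6, had 14.8 CPM in FOXA2-positive and 8.99 CPM in FOXA2-zero cells (log2 ratio 0.72, 0.57 to 0.87). The chemokine receptor CXCR4, used to sort definitive endoderm, had 1.38 CPM in FOXA2-positive and 1.53 CPM in FOXA2-zero cells. FOXA1 had 6 UMIs in all FOXA2-positive cells and 4 in all FOXA2-zero cells, HNF4A had 8 and 5, and TTR had 1 and 1. FOXA3 was level, with 12.3 CPM in FOXA2-positive and 11.8 CPM in FOXA2-zero cells, and KIT had 26.5 and 22.6 CPM in those groups.

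Of the 10 node and notochord genes, 3 were compared, TBXT, KRT19 and CAV1, and TBXT alone was 1.5-fold higher. The share higher over all compared genes was 1.39%. NOTO had 14 UMIs in FOXA2-positive and 12 in FOXA2-zero cells, SHH had 22 and 15, and CHRD, a secreted BMP antagonist of the organizer, had 39 and 15. KRT19 was within 1.5-fold, with 73.5 CPM in FOXA2-positive and 58.5 CPM in FOXA2-zero cells, and CAV1 had 59.6 and 58.2 CPM in those groups. FOXD4L1 had no UMI in either group.

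Lists of other cell types had between 0 and 3 compared genes each. No gene of the amnion and trophoblast list reached 10 CPM, and the 11 genes summed to 14.5 CPM in FOXA2-positive and 20.1 CPM in FOXA2-zero cells. Nascent and paraxial mesoderm genes summed to 34.4 CPM in FOXA2-positive and 28.1 CPM in FOXA2-zero cells, with 2 of 14 compared, SNAI1 and DLL3. The lateral mesoderm genes summed to 50.2 CPM in FOXA2-positive and 33.9 CPM in FOXA2-zero cells. Both compared genes of that list were at least 1.5-fold higher, GATA4 through its level in FOXA2-positive cells alone, beside 1.39% of all compared genes. In the neural list NES alone was compared, with 62.5 CPM in FOXA2-positive and 61.4 CPM in FOXA2-zero cells, and in the blood and vessel list KDR had 36.5 and 44.7 CPM in those groups. Germ cell genes summed to 141 CPM in FOXA2-positive and 168 CPM in FOXA2-zero cells, and of 3 compared 0 were 1.5-fold apart.

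Cell state lists moved little. All 36 G2/M genes and all 26 compared S phase genes were within 1.5-fold, with median log2 ratios of 0.12 and -0.12. The 13 mitochondrially encoded genes had a median of -0.19 and the 13 compared stress response genes of -0.01. The 3 stress genes of the rule summed to 285 CPM in FOXA2-positive and 230 CPM in FOXA2-zero cells, below the limit by choice. Cholesterol synthesis genes were all slightly positive, from 0.06 to 0.36, with 0 of 18 past 1.5-fold. In the glycolysis list 1 of 21 was higher, the lactate carrier SLC16A3 (0.61, 0.50 to 0.72). For this and the dissociation list, the share higher over all compared genes was 1.39%. Of 12 genes of the response to dissociation 2 were higher, IER3 and EGR1 (0.71 and 0.68), and the 10 p53 targets had a median of -0.11. Whether depth, cell cycle or the dissociation response had a part in the other differences was not tested.

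Shares of cells with a UMI at 10000 UMIs per cell followed the same order. Among 1819 FOXA2-positive and 3005 FOXA2-zero cells deep enough, FGF17 was found in 24.96% of FOXA2-positive cells (23.0 to 27.0) and 4.26% of FOXA2-zero cells (3.57 to 5.04). GATA6 was found in 17.6% of FOXA2-positive (15.9 to 19.4) and 2.86% of FOXA2-zero cells (2.30 to 3.52). The majority of FOXA2-positive cells therefore had no UMI of either gene at that depth. CER1 was found in 42.8% (40.5 to 45.1) of FOXA2-positive and 18.6% (17.2 to 20.01) of FOXA2-zero cells, and EOMES in 58.4% (56.1 to 60.7) and 35.0% (33.3 to 36.8) of those groups. MIXL1 was found in 78.2% (76.2 to 80.1) of FOXA2-positive and 53.2% (51.4 to 55.04) of FOXA2-zero cells. SOX2 was found in 30.7% (28.6 to 32.9) of FOXA2-positive and 54.0% (52.2 to 55.8) of FOXA2-zero cells. Without thinning, those shares were 36.9% and 7.1% for FGF17, 30.8% and 5.1% for GATA6, 68.5% and 31.2% for CER1, 82.0% and 52.8% for EOMES, 93.3% and 67.1% for MIXL1, and 57.3% and 73.6% for SOX2, each with FOXA2-positive cells first. No cell class lacking these genes was annotated in CHIR, so no level of free RNA was set for them and the share in FOXA2-zero cells is given in its place.

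HHEX was found in 8.74% of FOXA2-positive cells (7.48 to 10.1) and 5.96% of FOXA2-zero cells (5.14 to 6.86) after thinning, and in 21.6% and 11.4% without it. CDX2 was found in 0.77% of FOXA2-positive (0.42 to 1.29) and 0.70% of FOXA2-zero cells (0.43 to 1.07), and MESP1 in 0.66% (0.34 to 1.15) and 0.73% (0.46 to 1.11) of those groups, which did not differ beyond their intervals. Unthinned, 770 of 1826 FOXA2-positive cells (42.2%, 39.9 to 44.5) held UMIs of both SOX2 and TBXT, against 1020 of 3143 FOXA2-zero cells (32.5%, 30.8 to 34.1). FOXA2-positive cells were the deeper of the groups.

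Levels of these genes differed along the FOXA2 count, within the FOXA2-positive cells as well. The cells are grouped here by the count that chose them, so the levels are a description. In CHIR cells with 0, 1, 2, 3, 4 to 5 and at least 6 FOXA2 UMIs, FGF17 stood at 9.1, 21.6, 42.3, 46.9, 60.7 and 104 CPM. GATA6 stood at 4.3, 10.1, 22.9, 25.6, 28.7 and 52.2 CPM in the same order, and SOX2 at 99.4, 67.1, 56.9, 45.9, 49.8 and 36.2 CPM. EOMES went on more gently, at 57.4, 83.5, 106, 112, 114 and 134 CPM, and FGF8 had 74.1, 79.3, 78.9, 76.2, 65.9 and 59.0 CPM. DKK1 had 5.5, 12.4, 25.2, 25.5, 25.4 and 51.7 CPM in that order, and CER1 had 29.98, 49.8, 81.3, 84.9, 97.2 and 135 CPM. DKK1 was nearly level between 2 and 5 UMIs and highest at 6 or more. Median depth went up along the same series, with 21480 UMIs at 0 and 29773.5 UMIs at 6 or more. After thinning to 10000 UMIs, when median depth before thinning was between 23204.5 and 25125 in every group, FGF17 had 17.0, 41.4, 75.6 and 98.3 CPM in cells with 0, 1, 2 and at least 3 FOXA2 UMIs, and SOX2 had 88.0, 53.6, 40.5 and 37.1 CPM.

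**Figure D3:**
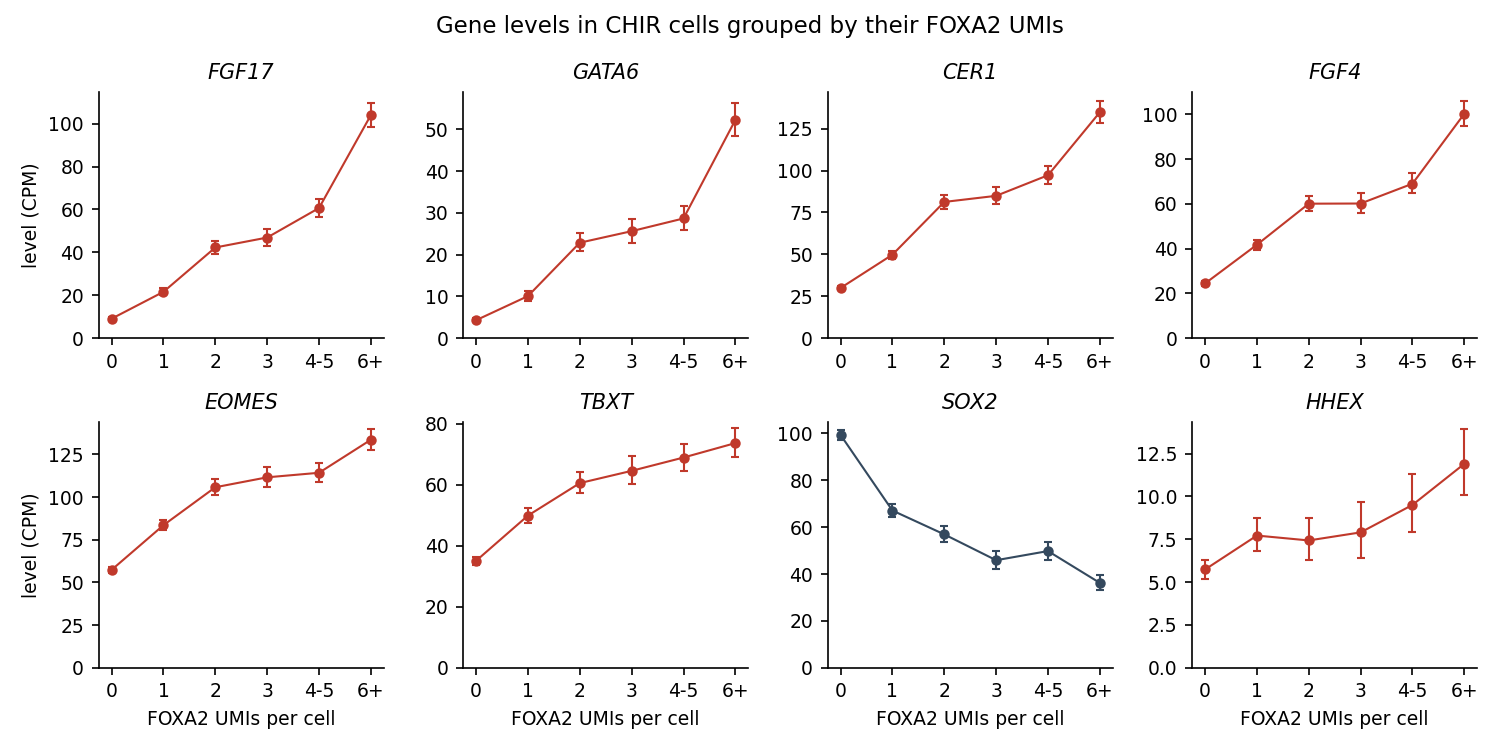
Levels in CPM of 8 genes in CHIR cells grouped by FOXA2 UMIs per cell (x axis), with exact 95% Poisson bars for counting error, cells of 1 library without SOX17 and under the stress limit. FGF17 runs from 9.1 CPM at 0 UMIs to 104 CPM at 6 or more, SOX2 from 99.4 to 36.2 CPM, and HHEX stays under 12 CPM.

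FOXA2-positive cells were divided by GATA6, a gene taken up after its values were seen, and by HHEX, and by no other gene. UMIs of GATA6 were present in 563 of them and absent from 1263, and FOXA2 itself differed little between those, at 140.1 and 119 CPM. Among 9912 genes compared, 125 (1.26%) were at least 1.5-fold higher and 104 (1.05%) at least 1.5-fold lower in cells with GATA6. FGF17 had 154 CPM in FOXA2-positive cells with GATA6 and 15.7 CPM in those without (log2 ratio 3.29, 3.17 to 3.42). DKK1 had 76.5 CPM with GATA6 and 8.8 CPM without (3.12, 2.95 to 3.29), LHX1 had 22.9 and 2.6 CPM (3.13, 2.81 to 3.45), and CER1 had 192 and 51.0 CPM (1.91, 1.84 to 1.99). DSCAM, an adhesion receptor that binds netrin, and PLXNA2 also led that comparison, at 47.7 and 7.0 CPM and at 39.2 and 7.8 CPM. DKK1, LHX1, DSCAM and PLXNA2 reached 10 CPM only in cells with GATA6, so their calls followed in part from the filter. All calls of that kind were not counted in this division or in that by HHEX. SOX2 had 32.2 CPM with GATA6 and 56.4 CPM without (-0.81, -0.94 to -0.68), and RMST had 33.8 and 64.5 CPM. Median depth was 29322 UMIs with GATA6 and 26720 without.

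The secreted anterior genes were also high with GATA6 in cells without a FOXA2 UMI. The 160 FOXA2-zero CHIR cells with a GATA6 UMI had 102 CPM of FGF17, 162 CPM of CER1 and 60.3 CPM of DKK1. The 2983 FOXA2-zero cells without GATA6 had 3.6, 22.6 and 2.6 CPM of those genes. In FOXA2-positive cells without GATA6 they stood at 15.7, 51.0 and 8.8 CPM, so their levels were below those of FOXA2-zero cells with GATA6. EOMES, FGF4, MIXL1, GSC and ROR2 had the same order. With GATA6 alone EOMES and FGF4 stood at 142 and 85.9 CPM, against 85.6 and 48.7 CPM with FOXA2 alone. HHEX went the other way, at 5.16 CPM with GATA6 alone and 9.64 CPM with FOXA2 alone. LHX1 had 22.9 CPM where both FOXA2 and GATA6 were found, 2.6 CPM with FOXA2 alone, 6.6 CPM with GATA6 alone and 1.3 CPM with neither. The 160 cells with GATA6 alone held 28 UMIs of LHX1 and 22 of HHEX. PCDH10 stood higher with FOXA2 alone (85.7 CPM) than with GATA6 alone (67.6 CPM), beside 111 CPM with both and 36.7 CPM with neither. The limits were unlike, at least 2 UMIs for FOXA2 and at least 1 for GATA6. SOX2 was 32.2 CPM with both, 56.4 CPM with FOXA2 alone, 51.4 CPM with GATA6 alone and 102 CPM with neither. Restricting both groups to cells without GATA6 left 85 genes at least 1.5-fold higher and 51 lower, of which 78 and 50 were among those called in all cells. The log2 ratio of FGF17 was then 2.10, of CER1 1.17 and of FGF4 1.23, whereas that of NTN1 was 0.29. LHX1 and HHEX had another order in CHIR+Activin. There LHX1 had 176 CPM with GATA6 alone and 53.1 CPM with both. HHEX had 15.6 CPM with GATA6 alone and 8.03 CPM with FOXA2 alone in that library. PCDH10 kept its order there, at 83.3 CPM with FOXA2 alone and 65.5 CPM with GATA6 alone.

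Fewer genes stood apart when FOXA2-positive CHIR cells were divided by HHEX. Between 395 cells with and 1431 without a HHEX UMI, 24 of 9911 genes (0.242%) were at least 1.5-fold higher and 3 (0.0303%) lower. The higher genes of at least 20 CPM were headed by ADCY8, P4HA2, PFKFB4 and RIMKLA, and EGLN3 was also among them. P4HA2 modifies collagen, PFKFB4 steers glycolysis and EGLN3 is an oxygen sensor of the hypoxia pathway. PFKFB4 had 41.4 CPM in cells with HHEX and 25.8 CPM in cells without (log2 ratio 0.68, 0.53 to 0.83). The collagen-modifying PLOD2, just within 1.5-fold, had 154 and 104 CPM (0.57, 0.50 to 0.65). Of 21 compared genes of the glycolysis list 0 were 1.5-fold apart, and their median log2 ratio was 0.21. EOMES had 105 CPM with HHEX and 118 CPM without, and CER1 had 98.6 and 97.5 CPM. LHX1 was the 1 anterior streak gene past 1.5-fold, at 15.6 CPM with HHEX and 7.5 CPM without (1.06, 0.81 to 1.32). It reached 10 CPM only in cells with HHEX, so that call followed in part from the filter. In CHIR+Activin, between 164 cells with and 987 without HHEX, LHX1 had 70.0 and 15.1 CPM (2.21, 1.97 to 2.45), GATA6 had 119 and 68.7 CPM (0.79, 0.64 to 0.94) and CYP26A1 had 69.0 and 40.5 CPM (0.77, 0.56 to 0.97). GSC, CER1 and FGF17 were also on the higher side there, at log2 ratios of 0.57, 0.53 and 0.47. PFKFB4 and PLOD2 had 0.57 and 0.54 in that library, while the intervals of ADCY8 (-0.19 to 0.73), P4HA2 (-0.13 to 0.70) and EGLN3 (-0.18 to 0.60) held 0. The difference between the libraries was not tested. Median mitochondrial share was 3.78% in cells with HHEX and 4.60% in cells without, and median depth was 29812 and 27126 UMIs.

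**Figure D4:**
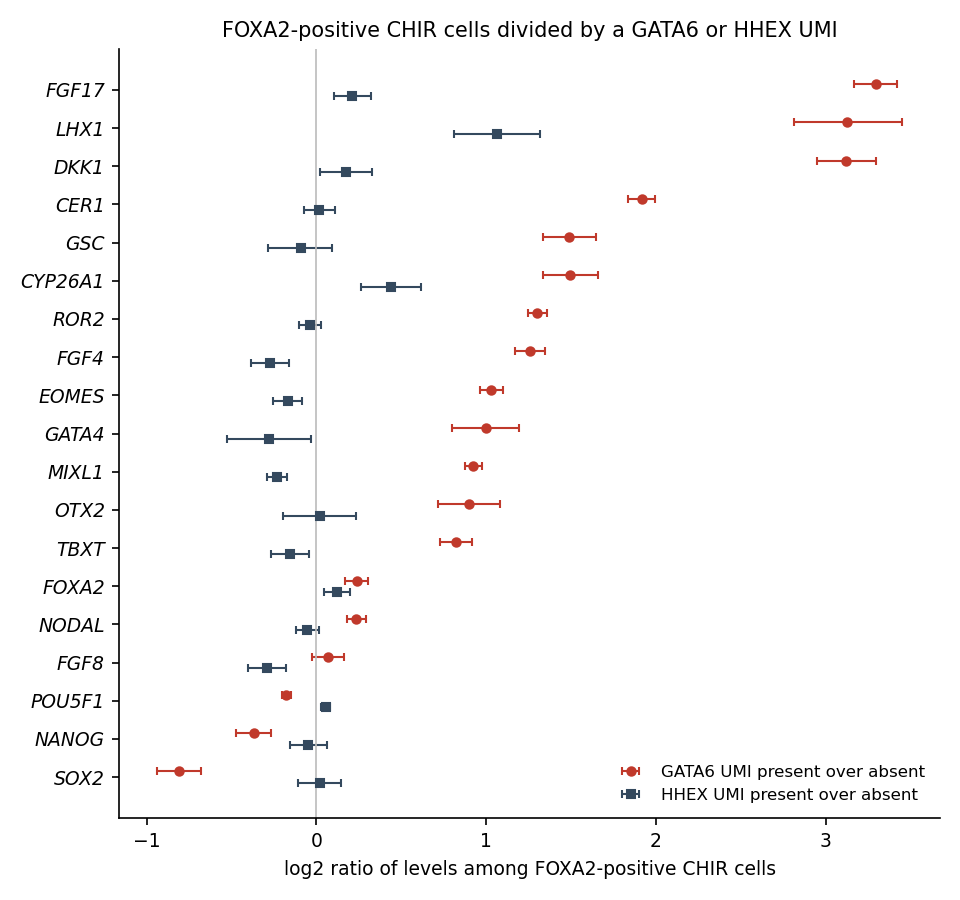
Log2 ratio of levels among FOXA2-positive CHIR cells, with GATA6 (circles, 563 over 1263 cells) and with HHEX (squares, 395 over 1431 cells) over cells without, bars giving exact 95% counting intervals. FGF17, LHX1 and DKK1 are above 3 for GATA6, and LHX1 alone is above 1 for HHEX.

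The same rule in CHIR+Activin, a library that did not choose the genes, gave 148 of 9765 genes (1.52%) at least 1.5-fold higher and 102 (1.04%) at least 1.5-fold lower in its 1151 FOXA2-positive than in its 4334 FOXA2-zero cells. Of the higher genes, 110 were shared, which is 79.7% of those of CHIR and 74.3% of those of CHIR+Activin. Of the lower genes, 54 were shared, 78.3% of those of CHIR and 52.9% of those of CHIR+Activin. All 138 higher and all 69 lower CHIR genes had the same sign in CHIR+Activin, beside 77.0% of the 9651 genes compared in both.

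Several leading genes of CHIR had smaller ratios in CHIR+Activin, where their FOXA2-zero cells stood higher. FGF17 had 192 CPM in FOXA2-positive and 82.2 CPM in FOXA2-zero cells of CHIR+Activin (log2 ratio 1.23, 1.17 to 1.28). GATA6 had 76.4 CPM in FOXA2-positive and 40.8 CPM in FOXA2-zero cells there (0.91), DKK1 had 46.2 and 22.1 CPM (1.06), and CER1 had 191 and 136 CPM (0.49, 0.44 to 0.53). LHX1 had 23.5 CPM in FOXA2-positive and 25.7 CPM in FOXA2-zero cells of CHIR+Activin (-0.13). The FOXA2-zero cells of CHIR+Activin included 573 with a GATA6 UMI, in which FGF17 stood at 509 CPM and SOX17 at 44.0 CPM. Of all 4334 FOXA2-zero cells there, which had no SOX17 limit, 80 carried a SOX17 UMI (1.85%). The difference between libraries was not tested, since each treatment was 1 library. EOMES, MIXL1, TBXT and SOX2 had like ratios in both, with 0.87, 0.95, 0.89 and -0.97 in CHIR+Activin. FGF4 had 101.3 CPM in FOXA2-positive and 39.1 CPM in FOXA2-zero cells of CHIR+Activin (log2 ratio 1.37, 1.30 to 1.45).

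**Figure D5:**
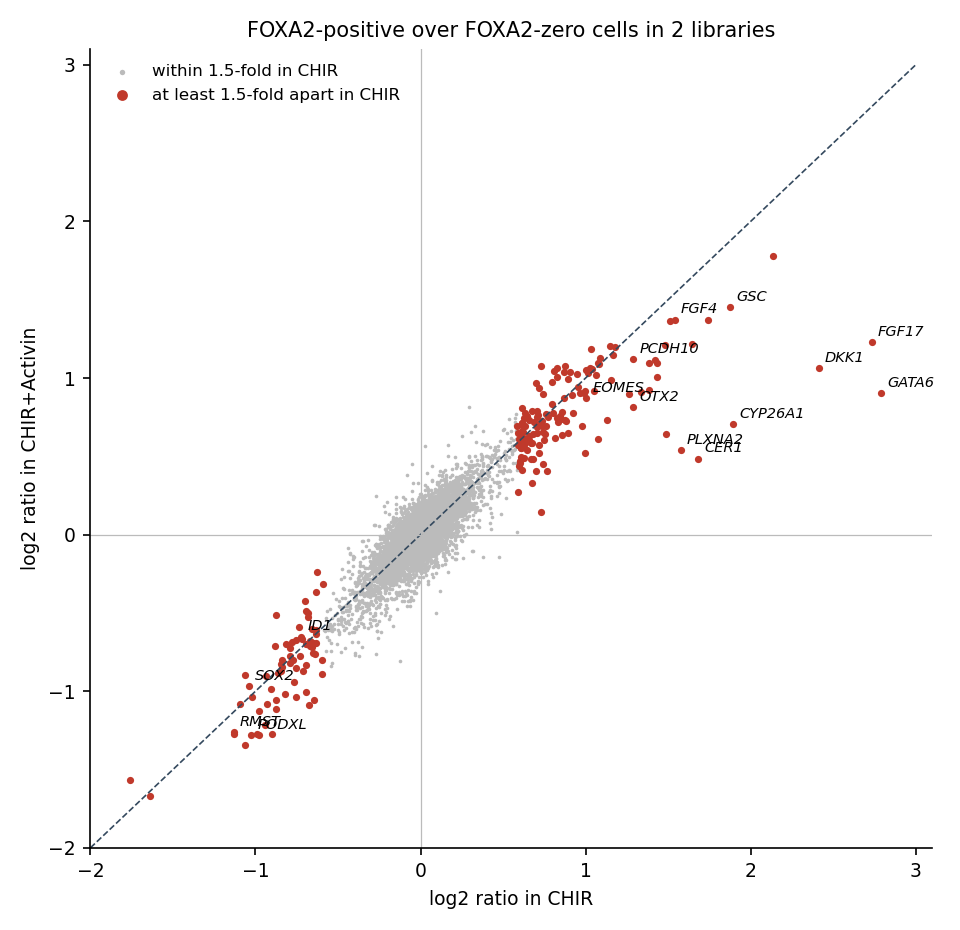
Log2 ratio of levels, FOXA2-positive over FOXA2-zero cells, in CHIR (x axis) and CHIR+Activin (y axis) for the 9896 genes compared in CHIR, with the line of equality dashed. All coloured genes, those at least 1.5-fold apart in CHIR, have the same sign in both, and GATA6, FGF17, DKK1, CYP26A1 and CER1 lie farthest under the line.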

How the data were processed

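Single-cell RNA came from 3 libraries made with the 3′ kit of 10x Genomics, each aimed at 10000 cells. The deposited matrices hold unnormalized UMI counts for every gene in every barcode. Per the file headers, Cell Ranger 8.0.1 made them. Seurat is named in the submitters' processing notes. The genome build was not given in the sources used here, and genes carry the symbols and IDs of the files and no coordinates. All 38606 genes are listed in each library. Filtered matrices of 7706 barcodes for CHIR and 7391 for CHIR+Activin were used. The BMP4 matrix held 1935344 barcodes, of which the 9440 with at least 3738.9 UMIs were taken as cells. Cells of at least 2000 genes and at most 15% mitochondrial UMIs were kept, which removed 622, 515 and 39 barcodes from CHIR, CHIR+Activin and BMP4.

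UMIs were summed over the cells of a group and scaled to CPM. Log2 ratios carry exact conditional binomial intervals, and shares of cells exact Clopper-Pearson intervals. Genes of at least 10 CPM in either group were compared, and 1.5-fold is a rule of size, not a test. A group at 0 counts was set at 3 counts, which is 0.0517 CPM in FOXA2-positive and 0.0398 CPM in FOXA2-zero CHIR cells. Doublets were not removed, since Scrublet (scanpy 1.11.5) marked 0 of 7084 CHIR cells and so did not work. In its place the highest-scoring 6% were left out as an alternative. Calculations used Python 3.11.15, numpy 2.4.6 and scipy 1.17.1 and were tested on simulated data.

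The named genes are the 4 markers, the 15 highest and 15 lowest of at least 50 CPM, up to 4 members of each of 31 gene lists with the widest gaps, and the members of the anterior streak, endoderm, axial mesoderm, NODAL and epiblast lists. LHX1, PRDM14 and genes of the divisions by GATA6 and HHEX are given as such members or as leading genes of at least 20 CPM. The population and the lists were chosen with earlier results of these data known. A gene of these lists stays in the counts and is not reported here by name.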

Additional observations from a re-analysis of the deposited data

Results flagged for a closer look

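The 46 FOXA2-positive cells of BMP4 were set against 9095 FOXA2-zero cells that differ from those of CHIR, and 13 of the leading genes were at least 1.5-fold apart in the opposite direction there. Over all 10231 genes compared in BMP4, 944 were at least 1.5-fold higher and 936 lower, so gaps of that size were common there. FOXA2-zero cells had no SOX17 limit, and 1484 of the 9095 in BMP4 (16.3%) carried a SOX17 UMI. The differences of the 13 genes between libraries were not tested. CER1 had 94.8 CPM in FOXA2-positive and 261 CPM in FOXA2-zero cells of BMP4 (log2 ratio -1.46), TBXT had 83.5 and 205 CPM (-1.29), and SOX2 had 71.1 and 23.1 CPM (1.62). The log2 ratio in BMP4 was -0.997 for ROR2, -0.96 for NTN1 and -0.85 for FGF17, all higher in FOXA2-positive cells of CHIR. It was 1.12 for VSNL1, 1.003 for ENSG00000289533, 0.97 for RMST, 0.95 for B3GALT1, 0.94 for EDIL3, 0.71 for PCSK5 and 0.60 for AASS, all lower in FOXA2-positive cells of CHIR. The 46 cells held 82 UMIs of FGF17 and 63 of SOX2, and none held more than 3 of FOXA2.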

How the results depend on the processing

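No paired analysis was possible because each treatment is 1 library. In CHIR, 138 genes were higher and 69 lower, and the share of FOXA2-positive cells was 25.8%. With FOXA2 of at least 1 UMI these were 83, 38 and 42.9%, with at least 4 UMIs 212, 111 and 11.1%, and with at least 3 UMIs the share was 16.5%. Thinning before the rule gave 191 and 118 genes and a share of 10.2%. A minimum of 50 CPM gave 33 and 15 genes, fewer being compared, and no minimum beyond 30 UMIs gave 830 and 954, of which 46.5% were higher, against 66.7% in the counts reported. The share was 24.3% without the highest-scoring 6% of cells, which held 11.3% of FOXA2-positive and 3.63% of FOXA2-zero cells. It was 30.7% with no stress limit, 14.1% with a limit of 300 CPM and 20.3% in cells under the median G2/M sum. The CHIR+Activin share was 16.7%, and BMP4 gave 944 and 936 genes and 0.489%. Cells without GATA6, an alternative chosen after seeing the data like that on EOMES, gave 85 and 51 genes. The cause of each shift was not tested.

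All 52 named genes at least 1.5-fold apart kept their sign under every CHIR alternative and in CHIR+Activin, with EOMES and GATA6 not counted where they chose the cells. Within CHIR the log2 ratio ranged from 2.10 to 3.15 for FGF17, from 1.17 to 1.92 for CER1, from 0.71 to 1.11 for EOMES and from -1.23 to -0.85 for SOX2. Fewer stayed 1.5-fold apart: 34 with FOXA2 of at least 1 UMI, 36 of 51 without GATA6, 42 in CHIR+Activin, 43 of 51 with EOMES, 44 under the median G2/M sum, 48 after thinning, 50 when weighted to depth or with the 300 CPM limit, and 51 by mean per-cell CPM. ID1 was as near as -0.54, NTN1 as low as 0.29 and ZIC2 as low as 0.46.

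In BMP4, 33 genes took the other sign. The log2 ratio there was -2.75 for COL5A1, -2.52 for SNAI1, -1.78 for PLXNA2, -1.76 for DKK1, -1.65 for GATA6, -0.90 for GATA4, -0.87 for EPHA4, -0.84 for CYP26A1, -0.83 for COL5A2, -0.61 for EGR1, -0.57 for EPB41L3, -0.51 for CDH2, -0.31 for MIXL1, -0.28 for IER3, -0.20 for OTX2 and -0.083 for ELL2. It was 0.87 for CLDN3, 0.35 for FGFR2, 0.23 for PODXL and 0.16 for TLE1. CER1, FGF17, NTN1, ROR2 and TBXT stood at -1.46, -0.85, -0.96, -0.997 and -1.29, and SOX2, VSNL1, ENSG00000289533, RMST, B3GALT1, EDIL3, PCSK5 and AASS at 1.62, 1.12, 1.003, 0.97, 0.95, 0.94, 0.71 and 0.60. With 886138 UMIs in those 46 cells, 3 counts are 3.39 CPM, so low genes cannot be read there.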

Other observations

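Below 50 CPM, and picked out after their values were seen, the 2 genes with the lowest log2 ratio in CHIR were noncoding RNAs. PCAT14 had 3.46 CPM in FOXA2-positive and 11.7 CPM in FOXA2-zero cells (log2 ratio -1.76), and JAKMIP2-AS1 had 10.9 and 33.8 CPM (-1.64). No strand setting is named in the sources used here, and whether reads of its sense partner were counted for JAKMIP2-AS1 was not tested. PCAT14 and JAKMIP2-AS1 were lower in FOXA2-positive cells of CHIR+Activin too, at -1.56 and -1.67. LINC02141 had 13.5 CPM in FOXA2-positive and 3.07 CPM in FOXA2-zero CHIR cells (2.14), and a log2 ratio of 1.78 in CHIR+Activin. CALCR, the calcitonin receptor, had 25.1 CPM in FOXA2-positive and 8.02 CPM in FOXA2-zero CHIR cells (1.64) and had a log2 ratio of 1.22 in CHIR+Activin.

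In CHIR, and unthinned, FOXA2 was read more often in cells at or above the stress limit than in cells below it. Of 894 such CHIR cells, 346 had at least 2 FOXA2 UMIs (38.7%, 35.5 to 42.0), against 1829 of 6190 cells below it (29.5%, 28.4 to 30.7). In CHIR+Activin the order was the other way, with 36 of 265 cells (13.6%, 9.70 to 18.3) against 1198 of 6611 (18.1%, 17.2 to 19.1). The difference between the libraries was not tested.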
